A study of Mus musculus with 2 samples.

Results

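Classical monocytes are the cells described here, and they made up 126 of 6601 immune cells kept from mouse kidney. A cell was a member when it carried at least 1 UMI (unique molecular identifier, 1 counted RNA molecule) of at least 2 of the 4 genes Chil3, Plac8, Vcan and Ly6c2. It also needed a UMI of Lyz2, under 10 UMIs of C1qa per 10000 gene UMIs, no UMI of Cd3d, Cd3e or Cd3g, under 2 UMIs of Cd209a, and a UMI of fewer than 2 of Ace, Treml4, Adgre4 and Cd300e. The cells came from kidney of B6 genotype with aristolochic acid nephropathy, a toxin-induced chronic kidney disease (AAN CKD in the labels). The time label of the sample is Week 2, but its title names both W1 and W2, and also Mouse 1. Kidney tissue was digested with Liberase, and live CD45+ cells were sorted and profiled with a droplet 3' assay. The analysis covers 1 single-cell sample, split by hashtag into 2 matrices called hashed sample 1 and hashed sample 2 here, with no untreated kidney beside it. The deposited names of both matrices carry W2, with m1 for hashed sample 1 and m2 for hashed sample 2. No label says what m1 and m2 stand for or where the W1 of the title belongs. The hashed samples could thus come from different animals or from the same one. Values that differ between the hashed samples cannot be told apart from such a difference. Both came from 1 capture, so no test between conditions was possible and intervals cover counting error only. The labels also name human kidneys in the protocol and mesenchymal stem cells as the cell type. The gene IDs were mouse, and Ptprc, which encodes CD45, was detected in 86.0% and 94.2% of the members.

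Members numbered 57 in hashed sample 1 and 69 in hashed sample 2, which was 1.83% (exact 95% interval 1.39% to 2.36%) and 1.98% (1.54% to 2.50%) of the kept cells. The main comparison was with patrolling monocytes, the 38 and 48 cells with a UMI of 2 or more of Ace, Treml4, Adgre4 and Cd300e under the same limits on Lyz2, C1qa, Cd3 and Cd209a. A second comparison was with 131 and 269 Cd209a cells, which had 2 or more UMIs of Cd209a, a lectin receptor of type 2 dendritic cells, and the same limits on C1qa and Cd3. Because the members were picked by measured genes of the same cells, every contrast below is a description without a test.

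Monocytes leave the bone marrow and circulate in a pair of main forms in mice. Classical monocytes carry the surface protein Ly6C and the chemokine receptor CCR2, enter inflamed tissue, and can become macrophages or dendritic cells there. Patrolling monocytes arise largely from classical ones, depend on the transcription factor NR4A1, carry more CX3CR1 and less Ly6C, and crawl along the inside of small vessels. In injured kidney, cells recruited from the blood join macrophages that already live in the tissue.

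The 4 marker genes chose the members, so their values describe the selection and do not test the label. Chil3, a chitinase-like secreted protein of monocytes (chromosome 3, 106147554 to 106167564 in GRCm38), was found in 112 of 126 members, and Plac8, a small cysteine-rich protein (chromosome 5, 100553725 to 100572245), in 101. Vcan, the matrix proteoglycan versican (chromosome 13, 89655312 to 89742509), was found in 44, and Ly6c2, which encodes Ly6C (chromosome 15, 75108158 to 75111970), in 40. The commonest combination was Chil3 with Plac8 alone, in 52 members. Of the members, 86 carried exactly 2 of the 4 genes, 35 carried 3, and 5 carried 4. Levels are given as CPM, a gene's UMIs over all gene UMIs of a class, on a scale where 1 UMI per 10000 is 100 CPM. Ly6c2 summed to 114 CPM (exact 95% Poisson interval 81.8 to 155) and 137 CPM (104 to 178) in the classical monocytes of hashed samples 1 and 2, against 6.22 and 10.2 CPM in patrolling monocytes. Chil3 was abundant in both forms, with 3557 and 1959 CPM in classical and 2414 and 1022 CPM in patrolling monocytes. Plac8 was the lower gene in the members, with 851 and 959.5 CPM against 1381 and 1433 CPM in patrolling monocytes. Ly6c2, the gene of the surface protein that defines classical monocytes, was thus detected in a minority, and Chil3 and Plac8 carried most of the selection. Ly6c2, Chil3 and Ear2 have close copies in the mouse genome, and how the authors' counting split shared reads is uncertain.

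Some members carried markers of another cell type. Of the resident macrophage markers C1qa, C1qb and C1qc, 55 of 126 members (27 and 28) had a UMI of 2 or more and 21 of all 3. Of 86 patrolling monocytes 38 had 2 or more, as did 357 of 929 and 195 of 449 T cells. Members thus carried 2 or more of these markers about as often as patrolling monocytes and T cells did. These markers summed to 495 and 569 CPM in classical monocytes, 877 and 661 CPM in patrolling monocytes and 778 and 1286 CPM in T cells, and C1qa itself was limited by the rule in the monocytes. The CD45 gate holds every leukocyte, and 15 members (6 and 9) had a UMI of 2 or more markers of NK cells, plasmacytoid dendritic cells, B cells or neutrophils, against 1 patrolling monocyte. Plasmacytoid dendritic markers (Siglech, Ccr9, Cox6a2, Klk1 and Runx2) were the most frequent, with 2 or more in 9 members, and 4 members had 2 or more neutrophil markers. The 6 members with 3 or more plasmacytoid markers held 41.4% of the members' Ly6c2 UMIs, 63.8% of Bst2 and 92.6% of Ly6d. In those 6 cells Lyz2 was at 588 CPM and neither Chil3 nor Vcan had a UMI, whereas the other 120 members had 22375 CPM of Lyz2 and 2829 CPM of Chil3. Without the 15 members, Ly6c2 stood at 80.8 and 60.6 CPM in the remaining classical monocytes. Plasmacytoid markers summed to 170 and 417 CPM in classical and 80.9 and 50.8 CPM in patrolling monocytes, where Siglech, Ccr9 and Cox6a2 were at 0. NK markers summed to 5.56 and 18.95 CPM in classical and 12.4 and 0 CPM in patrolling monocytes, with Ncr1, Gzma, Prf1 and Eomes at 0 in both classes. B cell markers summed to 58.4 and 18.95 CPM against 43.6 and 15.2 CPM. Neutrophil markers summed to 219.7 and 59.2 CPM against 31.1 and 45.7 CPM, with Ly6g at 0 in both. Of other types, 4 members had 2 or more markers of type 1 dendritic cells and 4 had 2 or more of proximal tubule. Mast cell, basophil and red cell markers were at 0 in both classes.

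Depth was uneven between the classes. Members had a median of 5667 and 5512 UMIs per cell, patrolling monocytes 3486 and 3806.5, and Cd209a cells 8874 and 9447. Summed over cells, the members' profiles held 359619 and 422096 UMIs, against 160718 and 196749 for patrolling monocytes, so a gene with no UMI could stand at up to 8.34 and 7.11 CPM in members and up to 18.7 and 15.2 CPM in patrolling monocytes (a floor of 3 counts). RNA free in the droplets was gauged in T cells, defined as cells with at least 2 UMIs of Cd3d, Cd3e and Cd3g, which should lack myeloid genes (median 3862.5 UMIs, against 5521.5 in members). Thinned to 1000 UMIs, which left out 1 member and 9 T cells, Lyz2 was present in 94.4% of members, 100% of patrolling monocytes and 44.0% of T cells, and without thinning in 100%, 100% and 88.4%. The Lyz2 limit was thus met by most T cells, too. C1qa was present in 12% of thinned members, 22.1% of patrolling monocytes and 18.0% of T cells (42.1%, 59.3% and 47.7% without thinning), but the members and patrolling monocytes were held to a C1qa limit that T cells were not. Chil3 had no such background, with 67.2% of thinned members, 46.5% of patrolling monocytes and 0.438% of T cells (88.9%, 61.6% and 1.38% without thinning). Ly6c2 was present in 8.8% of thinned members, 1.16% of patrolling monocytes and 11.3% of T cells (31.7%, 3.49% and 20.5% without thinning). Ly6c2 was thus no commoner in thinned members than in T cells. Cd209a cells did not share this T cell level, with Ly6c2 in 0% of thinned cells and 0.75% without thinning. The T cell share of Ly6c2 is therefore not a level found in all other cells. Plac8 was present in 41.6% of thinned members, 8.11% of T cells and 1.5% of Cd209a cells. Vcan was present in 8.8% of thinned members and 0.073% of T cells. Whether T cells made Ly6c2 and Plac8 themselves was not tested.

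Cells on either side of the limits differed in the following way. The 86 members with exactly 2 marker genes had 2234 CPM of Chil3, 10584 CPM of Apoe and 3491 CPM of H2-Aa. The 241 cells that met every other limit but carried exactly 1 marker gene had 593, 5009 and 7282 CPM of those genes, and 3462 CPM of Spp1 against 243 CPM in the members with 2. At the C1qa limit, 6 members had 5 to under 10 UMIs per 10000 and 749 CPM of C1qa in sum, and the 7 cells just outside had 1605 CPM. A Cd3 UMI kept out 61 cells, whose Lyz2 stood at 2500 CPM. The patrolling limit kept out 48 cells (23 and 25) that carried 2 or more of the 4 marker genes. These were 48 of the 86 patrolling monocytes, so most of that class also met the marker requirement of the members. The 48 cells had 2688 CPM of Chil3 and 693 CPM of Ear2.

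Set against patrolling monocytes, classical monocytes were higher in Fn1, Ccr2, Cd14 and several chemokine genes and lower in most known patrolling genes, such as Ear2, Spn and Cd36. A gene was called when its CPM plus 10 was at least 2-fold different in the same direction in both hashed samples, among 2851 genes that reached 50 CPM in 1 of the classes in each hashed sample. By this rule 65 genes (2.28% of those measured) were higher and 105 (3.68%) were lower in classical monocytes, 5.96% in all, and 64 and 101 without the genes that chose the cells. Within classical monocytes, 127 of 3125 genes at 50 CPM (4.06%) differed by 2-fold or more between hashed sample 1 and hashed sample 2, and within patrolling monocytes 325 of 3281 (9.91%). The median log2 ratio over measured genes was -0.06 and -0.02. A gene measured through 1 class alone had to be high there, so the counts per gene group below describe these cells and are not evidence for a group.

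**Figure D1:**
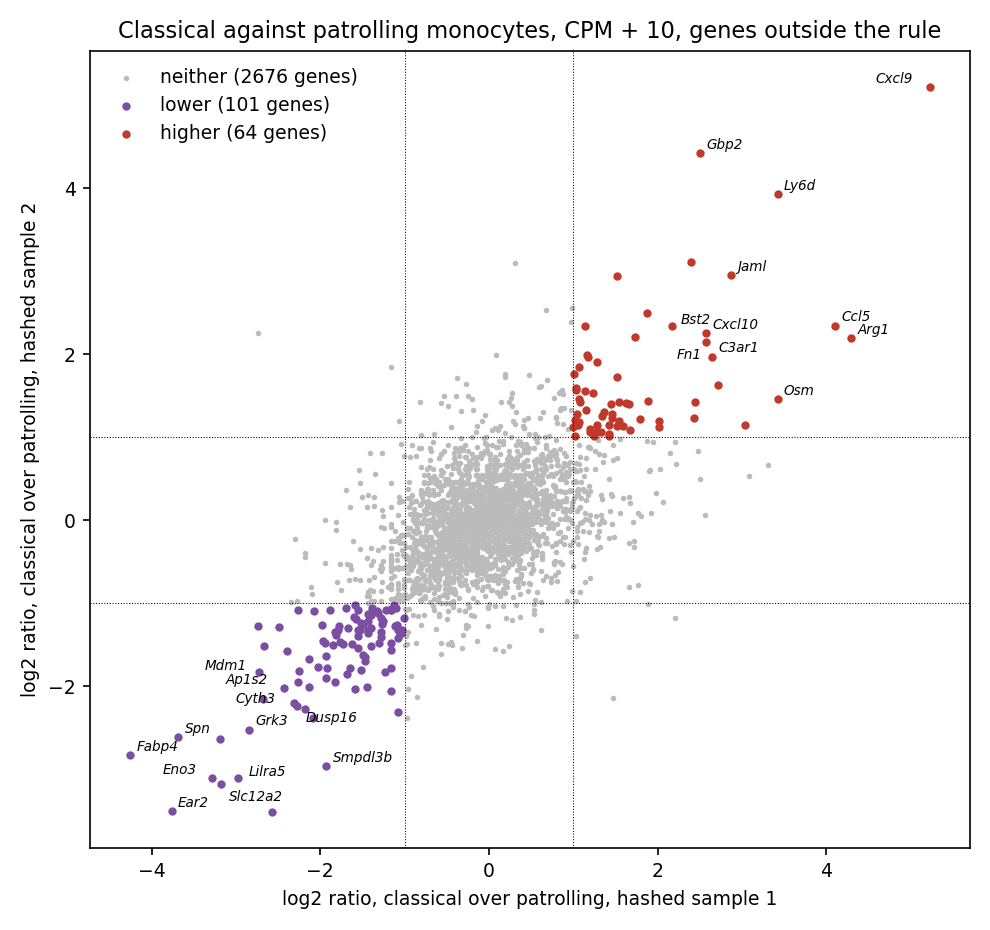
Log2 ratio of classical over patrolling monocytes in hashed sample 1 (horizontal axis) and hashed sample 2 (vertical axis), on CPM plus 10, one point per measured gene outside the selection rule, with dotted lines at 2-fold. The 64 higher genes lie at the top right, with Cxcl9 at 5.23 and 5.22, and the 101 lower genes at the bottom left, with Ear2 at -3.76 and -3.51.

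Genes known from patrolling monocytes were mostly lower in the members. Of 19 measured genes on a list of patrolling genes outside the rule, 13 were lower in classical monocytes and none was higher, with median log2 ratios of -2.08 and -1.58. Ear2, an eosinophil-associated ribonuclease, stood at 36.1 and 59.2 CPM in classical monocytes, against 616 and 778 CPM in patrolling monocytes. The ratio was 0.0587 (exact 95% interval 0.0302 to 0.105) and 0.0762 (0.0478 to 0.117). Fabp4, a fatty acid carrier, had no UMI in the classical monocytes of hashed sample 1 and 14.2 CPM in those of hashed sample 2, with its 6 UMIs in 1 cell, against 180 and 163 CPM in patrolling monocytes. That is at least 21.6-fold lower in hashed sample 1, with the floor of 3 counts taken per class, and a ratio of 0.0874 (0.0299 to 0.212) in hashed sample 2. Gngt2, a G protein gamma subunit, was at 175 and 239 CPM in classical and 1176 and 1103 CPM in patrolling monocytes, and Cd36, a scavenger receptor for oxidised lipids, at 58.4 and 82.9 CPM in classical and 616 and 569 CPM in patrolling monocytes. Levels of these 4 genes were several-fold lower in classical monocytes in both hashed samples. Spn, which encodes the sialoprotein CD43, was at 11.1 and 30.8 CPM against 261 and 239 CPM, and Itgal, the alpha chain of the integrin LFA-1, at 94.5 and 137 CPM against 491.5 and 559 CPM.

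The 6 genes of that list that missed the call included the best-known ones. Nr4a1, the transcription factor that patrolling monocytes need, was at 150 and 315 CPM in classical and 529 and 574 CPM in patrolling monocytes, past 2-fold in hashed sample 1 only. Cx3cr1, the fractalkine receptor, was at 89.0 and 121 CPM in classical and 187 and 361 CPM in patrolling monocytes, past 2-fold in hashed sample 2 and just short of it in hashed sample 1 (log2 ratio -0.99). The transcription factors Cebpb, which patrolling monocytes also need, and Klf2, a flow-responsive factor, differed by less than 2-fold, with log2 ratios of -0.39 and -0.40 for Cebpb and -0.55 and -0.14 for Klf2.

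Other named genes on the lower side had varied roles. Lilra5, an activating leukocyte receptor, had no UMI in the members and 68.4 and 76.2 CPM in patrolling monocytes, at least 8.20-fold and 10.7-fold lower by the same floor. Grk3, a kinase that desensitises G protein-coupled receptors, was at 64.0 and 61.6 CPM in classical and 523 and 402 CPM in patrolling monocytes. Slc12a2, a sodium, potassium and chloride cotransporter, stood at 5.56 and 11.8 CPM against 131 and 188 CPM, and Ap1s2, a subunit of a clathrin adaptor, at 86.2 and 64.0 CPM against 510 and 290 CPM. Eno3, the muscle form of enolase, the lipid phosphodiesterase Smpdl3b, Mdm1, Cyth3 (an exchange factor for ARF proteins) and Dusp16 (a MAP kinase phosphatase) completed the named genes, with 0 to 21.3 CPM in classical and 74.7 to 137 CPM in patrolling monocytes. Those 5 genes had 0 to 27 UMIs per class and hashed sample, so their ratios carry wide counting error.

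Genes known from classical monocytes differed less. Of 16 measured genes on a list outside the rule, 4 were higher, among them Fn1, Cd14 and Ccr2, Ifitm6 was lower and 11 were not called, with median log2 ratios of 0.46 and 0.46. Fn1, the matrix protein fibronectin, was at 1379 CPM (exact 95% Poisson interval 1261 to 1506) and 1156 CPM (1056 to 1263) in classical monocytes, against 224 and 254 CPM in patrolling monocytes. Its UMIs lay in 80 of 126 members, and thinned to equal depth it was present in 38.4% of members, 13.95% of patrolling monocytes and 1.90% of T cells (63.5%, 36.0% and 7.26% without thinning). Ccr2, the receptor that draws monocytes out of the marrow and into tissue, was at 787 and 1294 CPM in classical and 255 and 584.5 CPM in patrolling monocytes, 3.08-fold (2.22 to 4.39) and 2.21-fold (1.81 to 2.73) higher. Cd14, a co-receptor for bacterial lipopolysaccharide, was 3.58-fold (2.47 to 5.34) and 2.39-fold (1.71 to 3.41) higher, at 712 and 509 CPM against 199 and 213.5 CPM. Ifitm6, an interferon-induced membrane protein, was at 217 and 206 CPM in classical and 479 and 513 CPM in patrolling monocytes.

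Several other textbook classical genes were not called. Hp, the haemoglobin-binding protein haptoglobin, was at 203 and 329 CPM in classical and 267.5 and 299.9 CPM in patrolling monocytes. Gsr, glutathione reductase, was at 523 and 573 CPM against 890 and 717 CPM. S100a4 and S100a6, calcium-binding proteins, had log2 ratios of -0.42 and -0.15 for S100a4 and 0.13 and 0.79 for S100a6. Thbs1, the matrix glycoprotein thrombospondin, was 4.64-fold (3.15 to 7.11) higher in hashed sample 1 and 1.78-fold (1.27 to 2.54) in hashed sample 2, at 809 and 398 CPM in classical and 174 and 224 CPM in patrolling monocytes, and so missed the call. F13a1, a coagulation factor subunit, was at 83.4 and 168 CPM against 37.3 and 20.3 CPM, past 2-fold in hashed sample 2 only.

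A few cells could carry a call. Bst2, an interferon-induced tether of virus particles that plasmacytoid dendritic cells carry at rest, was at 175 and 348 CPM in classical and 31.1 and 61.0 CPM in patrolling monocytes, with 65.7% of its UMIs in the 15 members with markers of another cell type. Without those members it was at 90.2 and 118.5 CPM and was no longer called. Ly6d, a small membrane protein of early B cells and plasmacytoid precursors, had its 95 UMIs (35 and 60) in 7 members, each among the 15, and none without them. Of the adhesion and chemotaxis genes, Ccr1, a receptor of inflammatory chemokines, was higher at 250 and 206 CPM against 74.7 and 71.2 CPM, and Itga4, the alpha chain of the integrin VLA-4, was lower at 311 and 303 CPM against 1145 and 874 CPM. In that list 3 of 18 measured genes were higher and 2 lower. Jaml, a junctional adhesion protein of leukocytes, was at 108 and 107 CPM in classical monocytes, in 38 members, and had 1 UMI in the patrolling monocytes of each hashed sample (17.4-fold higher, 2.95 to 706, and 21.0-fold, 3.58 to 847). C3ar1, the receptor of complement fragment C3a, was at 91.8 and 109 CPM, in 35 members, against 6.22 and 20.3 CPM. Its call was lost against the 95 cells with 2 or more patrolling genes and no other limits. With every cell thinned to 1000 UMIs, Jaml, Osm, Ccl5 and Eno3 were no longer called.

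Between members with none of the 4 patrolling genes and those with 1, levels of some other genes differed. A UMI of Treml4, Adgre4 or Ace was found in 30 members (13 and 17), and the other 96 (44 and 52) had none. Nr4a1 was at 423 CPM (271 to 630) and 627 CPM (470 to 820) in the members with 1 and at 99.0 CPM (66.8 to 141) and 237 CPM (188 to 295) in those with none, so the members with 1 stood at the level of patrolling monocytes. Gngt2 was at 247 CPM (135 to 414) and 509 CPM (368 to 685) in the members with 1, and at 162 CPM (120 to 214) and 172 CPM (131 to 222) in those with none, with intervals that overlapped in hashed sample 1 and not in hashed sample 2. Gsr was at 952 and 710 CPM in the members with 1, against 442 and 539 CPM in those with none. Fn1 was on the other side, at 265 CPM (148 to 436) and 473 CPM (338 to 644) in the members with 1 and 1588 CPM (1449 to 1736) and 1327 CPM (1207 to 1456) in those with none. Cd14 followed Fn1, at 388 and 307.5 CPM against 772.5 and 560 CPM. Ccr2 did not, at 653 and 1396 CPM in the members with 1 and 812 and 1268 CPM in those with none, with overlapping intervals. Ear2, Cd36 and Spn in the members with 1 stayed well under the patrolling level, at 35.3 and 154 CPM for Ear2, 52.9 and 154 CPM for Cd36 and 35.3 and 94.6 CPM for Spn. In the members with none, Ear2 was at 36.3 and 35.6 CPM, Cd36 at 59.4 and 65.2 CPM and Spn at 6.602 and 14.8 CPM, so Ear2 and Cd36 did not stand higher in the members with 1 of hashed sample 1. Members with 1 patrolling gene had a median of 4751.5 UMIs per cell, against 5681.5 in those with none. Doublets of a classical and a patrolling cell were not tested for, and Scrublet called none among the members. Without the 30 cells, 62 genes were higher and 123 lower than in patrolling monocytes.

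**Figure D2:**
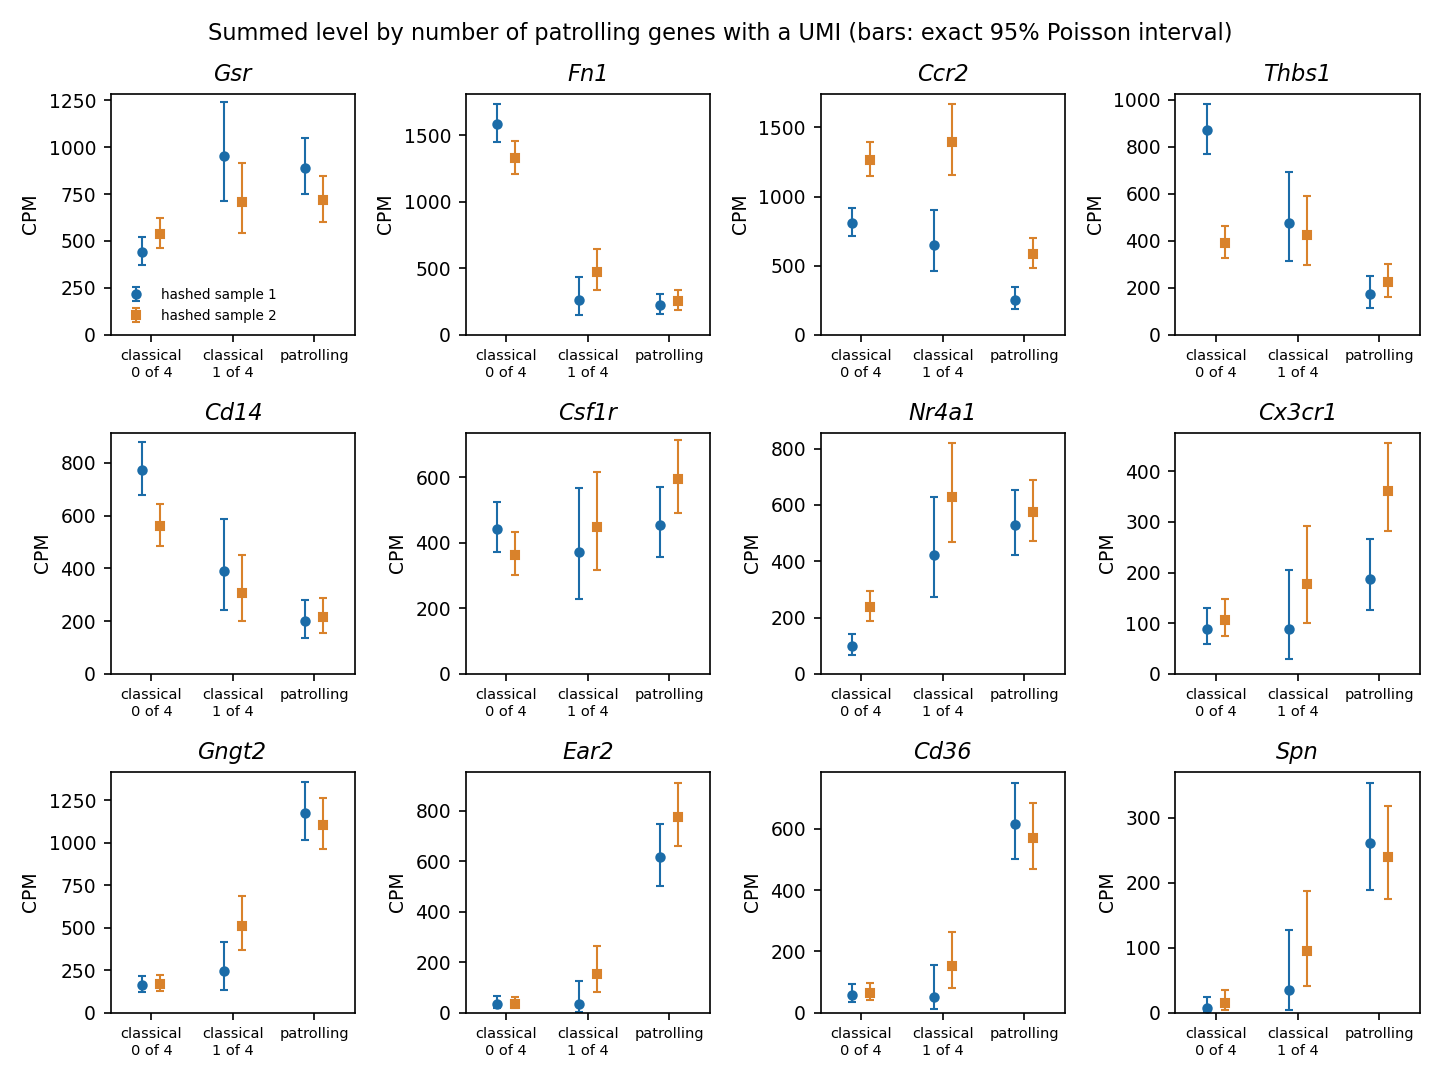
Summed CPM of 12 genes in classical monocytes with 0 and with 1 of Ace, Treml4, Adgre4 and Cd300e and in patrolling monocytes, for each hashed sample, with exact 95% Poisson intervals as bars. Nr4a1 and Gsr in members with 1 patrolling gene lie at the patrolling level, Fn1 and Cd14 drop in them, and Ear2, Cd36 and Spn are high in patrolling monocytes.

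Chemokines and cytokines were higher in classical monocytes, several of them through few cells. Of 12 measured genes on the list, 7 were higher and none lower, with median log2 ratios of 1.91 and 1.68. Cxcl9, an interferon-gamma-induced chemokine for T cells, was at 598 and 362 CPM in classical monocytes, against 6.22 CPM (1 UMI) and 0 CPM in patrolling monocytes. Its 368 UMIs (215 and 153) lay in 9 of 126 members, and 5 of these held 92.9%. Cxcl10, a chemokine of the same receptor, was at 161 and 135 CPM against 18.7 and 20.3 CPM, in 12 members, with 82.6% in 5 cells. Ccl5, which draws T cells and monocytes, was at 484 and 92.4 CPM against 18.7 and 10.2 CPM, with 88.3% in 5 cells. Its call was lost without the members that carried markers of another cell type. It was also lost against patrolling cells without other limits. T cells carried Ccl5 in 67.8% of thinned cells and members in 4.80% (85.3% and 15.9% without thinning). Leaving out each gene's highest cell in each class and hashed sample ended the calls of Ccl5, Cxcl10, Arg1 and Ly6d but not those of Cxcl9, Gbp2 or Osm. Ccl2, the ligand of CCR2, was at 186 and 448 CPM in classical and 43.6 and 71.2 CPM in patrolling monocytes, in 39 members. Ccl3 and Ccl4, ligands of CCR1, were at 211 and 218 CPM for Ccl3 and 250 and 891 CPM for Ccl4 in classical monocytes, against 80.9 and 50.8 CPM and 80.9 and 107 CPM in patrolling monocytes. Osm, a cytokine of the interleukin-6 family, was at 97.3 and 87.7 CPM against 0 and 25.4 CPM, in 18 members. Il1b, the cytokine interleukin-1 beta, was abundant and not called, at 1896 and 2156 CPM in classical and 747 and 2058 CPM in patrolling monocytes. The patrolling monocytes of the hashed samples thus differed more from each other in Il1b than the classical ones did.

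Interferon-stimulated genes were also on the higher side. Of 8 measured, Gbp2, Bst2, Slfn5 and Ifi47 were higher and none lower, with median log2 ratios of 0.98 and 1.78. The call of Bst2 was lost without the 15 members with markers of another cell type, as given above. Gbp2, an interferon-induced GTPase, was at 259 and 204 CPM in classical monocytes, in 30 members, against 37.3 and 0 CPM in patrolling monocytes. Summed over the 29 listed genes, members had a median of 8.57 and 6.90 UMIs per 10000 and a highest cell of 108 and 147, against medians of 4.41 and 3.93 and highest cells of 24.3 and 33.7 in patrolling monocytes. T cells, with medians of 7.45 and 9.35, were as high as members by this sum.

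**Figure D3:**
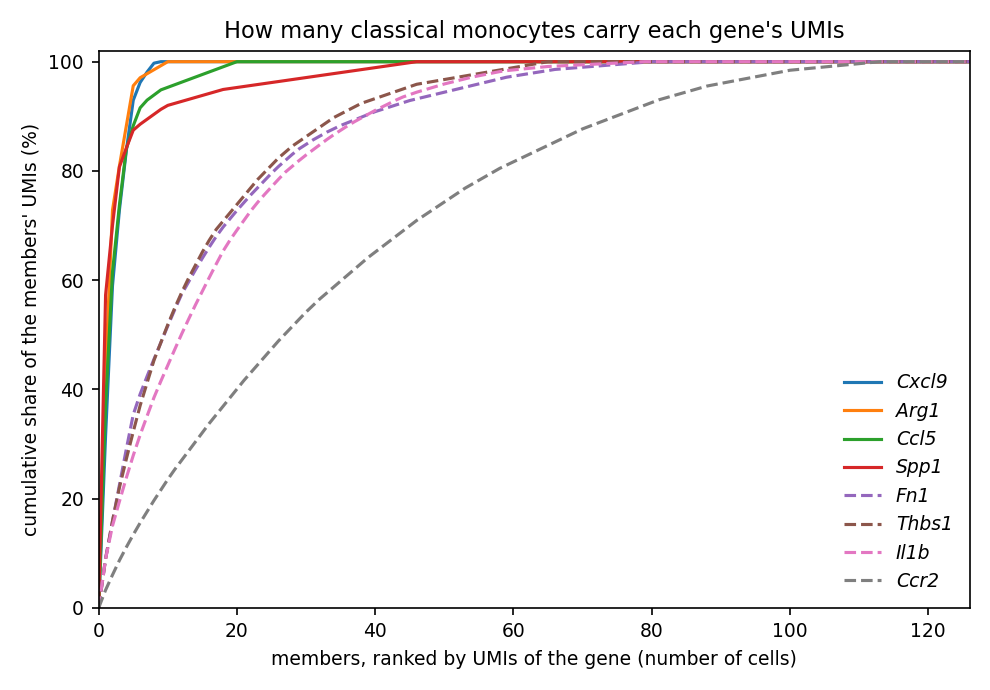
Cumulative share of each gene's UMIs (vertical axis, percent) over the 126 classical monocytes ranked by their UMIs of that gene (horizontal axis). Cxcl9, Arg1, Ccl5 and Spp1 reach 92.9%, 95.6%, 88.3% and 87.5% within 5 cells, whereas 5 cells hold 13.4% of Ccr2 and 35.4% of Fn1.

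Genes of macrophage maturation were mostly not called against patrolling monocytes. Of 20 measured, Arg1, Ctsl, Lpl and Spp1 were higher and none lower, with median log2 ratios of 0.73 and 0.60. Arg1, the enzyme arginase-1 of wound-healing macrophages, was at 309 and 59.2 CPM in classical monocytes against 6.22 and 5.08 CPM in patrolling monocytes, but its UMIs lay in 10 members, with 43.4% in a single one. Spp1, the secreted protein osteopontin, was at 303 and 1045 CPM against 143 and 341 CPM, with 57.3% in a single member. The share of thinned members with Spp1, 10.4%, was no higher than the 11.7% of T cells (36.5% and 36.2% without thinning). Ctsl, the protease cathepsin L, was at 250 and 332 CPM in classical and 106 and 76.2 CPM in patrolling monocytes, and Lpl, lipoprotein lipase, at 309 and 329 CPM against 99.6 and 117 CPM, in 35 members. Apoe, a lipid carrier, was at 13192 and 8771 CPM in classical monocytes, 6452 and 5428 CPM in patrolling monocytes, and 1394 and 1679 CPM in T cells, past 2-fold in hashed sample 1 only. Trem2, a lipid receptor of macrophages, had log2 ratios of 0.91 and 0.03. Beside fibronectin, the matrix, coagulation and repair list held 1 more higher gene of 11 measured, the phospholipid-binding protein Anxa1, at 136 and 137 CPM against 43.6 and 45.7 CPM.

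MHC class II, which presents antigen to CD4 T cells, varied widely among the members. The transcripts of H2-Eb1, H2-Aa and H2-Ab1, added together, had a median of 20.1 and 9.07 UMIs per 10000 in classical monocytes, with quartiles of 6.12 and 156 in hashed sample 1 and 2.91 and 87.5 in hashed sample 2. Patrolling monocytes had medians of 10.4 and 8.72, with upper quartiles of 15.8 and 18.4. The upper quartile of classical monocytes thus lay several-fold above that of patrolling monocytes. The highest single cell was at 415 and 374 in classical and 136 and 488 in patrolling monocytes, so high cells occurred in both classes. T cells had medians of 5.60 and 6.66 and lower quartiles of 2.92 and 2.99. In sum H2-Aa was at 3540 and 2499 CPM in classical and 1101 and 2170 CPM in patrolling monocytes, past 2-fold in hashed sample 1 only, and 1 of 7 measured class II genes was called. That gene was H2-DMa, part of the complex that loads peptides, 2.61-fold (1.80 to 3.91) and 2.43-fold (1.82 to 3.30) higher at 537 and 692 CPM against 205 and 285 CPM.

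**Figure D4:**
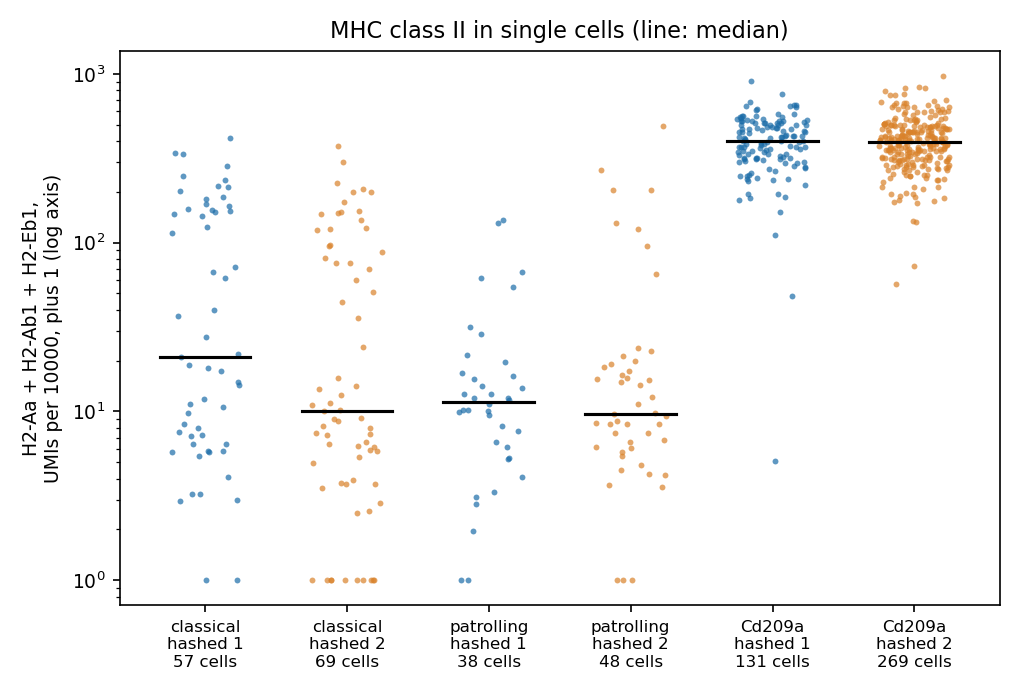
Summed UMIs of H2-Eb1, H2-Aa and H2-Ab1 per 10000 plus 1 (log axis) in single classical monocytes, patrolling monocytes and Cd209a cells of each hashed sample, with a line at the median. Classical monocytes spread from 0 to 415 in hashed sample 1 and 374 in hashed sample 2. Patrolling monocytes spread from 0 to 136 and 488, while Cd209a cells sit around medians of 399.6 and 396.

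Transcription factors, growth factor receptors and stress genes held few calls between the monocyte classes. Of 23 measured transcription factors, 1 was higher, and Pou2f2 and Tcf7l2 were lower. Pou2f2, an octamer-binding factor, was at 103 and 163.5 CPM in classical and 585 and 508 CPM in patrolling monocytes. Csf1r, the receptor for the monocyte growth factor CSF1, was not called, at 431 and 379 CPM in classical and 454 and 595 CPM in patrolling monocytes. Bcl2, which blocks cell death, was lower at 30.6 and 23.7 CPM against 174 and 152.5 CPM, as the single call among 13 measured receptor and survival genes. Of 14 Fc receptors and pathogen sensors, Cd14 was higher, and Cd36 and Fcgr4, a receptor for IgG, were lower, with Fcgr4 at 86.2 and 71.1 CPM against 323.5 and 193 CPM. Of 16 dissociation stress genes, Ier3 was higher and none was lower. The stress genes summed to medians of 70.2 and 89.3 UMIs per 10000 in classical monocytes and 50.1 and 57.3 in patrolling monocytes, and their part in the differences above was not tested. Among 10 glycolysis and hypoxia, 11 antioxidant and 3 cell cycle genes none was called, and of 2 neutrophil granule genes the protease inhibitor Slpi was higher.

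Set against Cd209a cells, classical monocytes were lower in 7 of 8 measured MHC class II genes and higher in 7 of 8 interferon-stimulated genes and 9 of 16 classical monocyte genes. Patrolling monocyte genes outside the rule were also mostly higher in classical monocytes than in Cd209a cells, with 8 higher and 2 lower of 13 measured. Of 2717 measured genes, 130 (4.78%) were higher and 112 (4.12%) lower in classical monocytes by the same rule, 8.91% in all, which made 53.7% of the called genes higher. With TMM scaling, a normalisation that assumes most genes level, 101 were higher and 132 lower (43.3% higher). The median over measured genes was then -0.04 and -0.11 on the log2 scale, against 0.12 and 0.14 with total UMIs. Cd209a was part of the rule on both sides. Within Cd209a cells, 13 of 2658 genes (0.489%) differed by 2-fold between the hashed samples.

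Higher genes against Cd209a cells included Thbs1, Hp, Apoe and Gsr. Thbs1 was at 809 and 398 CPM in classical monocytes and 13.3 and 12.9 CPM in Cd209a cells, 60.7-fold (36.7 to 108) and 30.8-fold (21.1 to 46.2) higher. Hp was at 203 and 329 CPM against 1.67 CPM (2 UMIs) and 1.18 CPM (3 UMIs). Apoe was 22.1-fold (20.4 to 23.9) and 16.5-fold (15.5 to 17.6) higher, at 13192 and 8771 CPM against 598 and 531 CPM, a Cd209a level below that of T cells. Gsr was at 523 and 573 CPM against 33.3 and 38.4 CPM, and Mgst1, a microsomal glutathione transferase, at 170 and 185 CPM against 10.8 and 3.92 CPM. Of 11 measured antioxidant genes 4 were higher and none lower, the others being Prdx5, a peroxiredoxin, and Hmox1, which breaks down haem. Of the 16 measured classical genes 9 were higher and none lower, with median log2 ratios of 1.79 and 1.86. Fn1 was 12.5-fold (10.3 to 15.3) and 8.13-fold (7.08 to 9.33) higher. Ccr2 was not called, at 787 and 1294 CPM in classical monocytes and 775 and 903 CPM in Cd209a cells.

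Other named genes on the higher side follow. Lst1, a leukocyte transcript, was at 189 and 223 CPM in classical monocytes and 5.83 and 14.5 CPM in Cd209a cells, and Msr1, a scavenger receptor, at 172 and 173 CPM against 10.8 and 7.06 CPM. Fpr2, a receptor for formylated peptides, was at 106 and 73.4 CPM against 1.67 and 0.392 CPM (2 UMIs and 1 UMI), in 38 members. Apoc2, an activator of lipoprotein lipase, was at 153 and 82.9 CPM against 2.50 and 5.49 CPM. Lyz1, the second lysozyme gene of mice, was at 106 and 130 CPM against 3.33 and 3.14 CPM, with 82.8% in 5 members, and reads could be split between it and its close copy Lyz2. Cxcl9 and Ly6d were named again, through the 9 and 7 members described above. C5ar1, the receptor of complement fragment C5a, was 14.9-fold (7.62 to 31.7) and 19.1-fold (10.0 to 38.8) higher, and Clec4d, a sensor of mycobacterial lipid, 19.6-fold (9.61 to 45.3) and 47.1-fold (18.6 to 153). Of 13 measured Fc receptors and sensors 7 were higher and none lower.

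Lower genes against Cd209a cells included class II genes, Ccl17 and Mgl2. Of 8 measured class II genes 7 were lower, with median log2 ratios of -1.93 and -2.33, H2-DMb1 being the exception at -0.995 and -0.85. H2-Aa was at 3540 and 2499 CPM in classical monocytes and 13539 and 12918 CPM in Cd209a cells, and Ciita, the regulator that switches on class II genes, at 77.9 and 59.2 CPM against 313 and 309 CPM. Ccl17, a chemokine for T cells made by dendritic cells, was at 8.34 and 135 CPM in classical monocytes and 2718 and 2789 CPM in Cd209a cells. Mgl2, a galactose-binding lectin, was at 30.6 and 71.1 CPM against 2197 and 3048 CPM. The mucosal integrin chain Itgb7 and Itgax, which encodes CD11c, were lower, with Itgax at 47.3 and 45.0 CPM against 338 and 394 CPM. Ear2 was also lower than in Cd209a cells, at 36.1 and 59.2 CPM against 583 and 575 CPM. Further named genes on this side were H2-DMb2, the NF-kB inhibitor Tnip3, Fgfr1, Il1rl1, Cbfa2t3, Tmem176a, Il18rap, Clec4b1 and Klrb1b, with 0 to 90.0 CPM in classical monocytes and 78.4 to 699 CPM in Cd209a cells.

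Of 8 measured interferon-stimulated genes 7 were higher and none lower. Ifi204, an intracellular DNA sensor, was at 139 and 216 CPM in classical monocytes, in 61 members, against 20.8 and 9.80 CPM in Cd209a cells. Of 11 measured matrix, coagulation and repair genes 6 were higher, among them F10, coagulation factor X, at 125 and 111 CPM against 9.17 and 18.0 CPM, and Plaur, the urokinase receptor, at 203 and 190 CPM against 38.3 and 56.8 CPM. Of 24 transcription factors 7 were higher and 2 lower. Cebpb was 6.65-fold (5.49 to 8.08) and 6.78-fold (5.92 to 7.78) higher. Irf4, a factor that type 2 dendritic cells need, was at 5.56 and 11.8 CPM in classical monocytes and 50.01 and 77.6 CPM in Cd209a cells. Irf8 was 5.36-fold (3.90 to 7.40) and 8.86-fold (7.07 to 11.1) higher, with 46.2% of its UMIs in the 15 members with markers of another cell type. Cytokines and chemokines split, with Cxcl9 and Osm higher, and Tnf and Tnfsf9 lower, of 14 measured. Of the remaining lists, adhesion and chemotaxis receptors had 6 higher and 2 lower of 19 measured, and macrophage maturation genes 5 and 2 of 19. Receptor and survival genes had 2 and 0 of 13, stress genes 1 and 0 of 16, and neutrophil granule genes 1 and 0 of 2. No glycolysis or cell cycle gene was called.

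**Figure D5:**
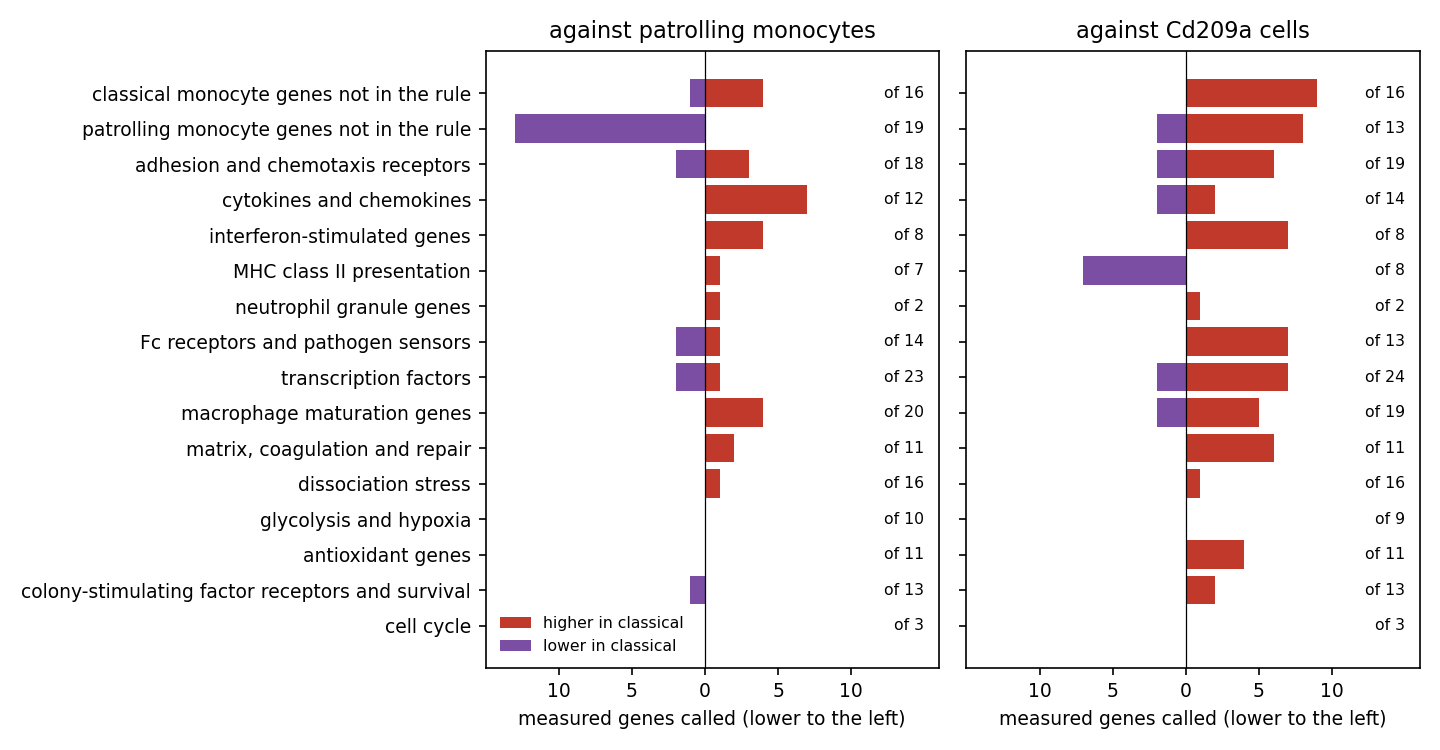
Number of measured genes in each of 16 gene lists that were at least 2-fold higher (right of 0) or lower (left of 0) in classical monocytes in both hashed samples, against patrolling monocytes (left panel) and Cd209a cells (right panel), with the number measured at the right. Patrolling genes were lower than in patrolling monocytes at 13 of 19, and class II genes lower than in Cd209a cells at 7 of 8.

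The most variable genes among the members included chemokines, Apoe and antigen-presentation genes. In members thinned to 1000 UMIs, the variance of a gene's UMIs over its mean had a median of 1.07 across 1117 genes with a mean of 0.1 or more in each hashed sample, where counting error alone gives about 1. Cxcl9 stood highest, with ratios of 9.39 and 22.3, in 6 of 56 and 2 of 69 thinned members. Malat1, a long RNA kept in the nucleus, was next at 17.7 and 4.96, followed by Apoe at 13.1 and 7.78 and Cd74, the class II invariant chain, at 11.0 and 8.68. Lyz2 had ratios of 8.32 and 9.64, Cst3, a protease inhibitor high in dendritic cells, 7.17 and 9.73, and Il1b 9.58 and 5.69. Ccl5, Gm42418, Spp1, H2-Eb1, Cxcl10, Ly6d, Chil3 and Ccl4 completed the 15 genes, with mean ratios of 5.35 to 7.47. Chil3, itself a selecting gene, ran from 0 to a highest 268 and 98.4 UMIs per 10000, with medians of 21.7 and 16.3. Ccr2 was spread more evenly, in 113 of 126 members with medians of 6.21 and 12.6 UMIs per 10000, and the hashed samples differed in it by more than counting error (787 CPM, 698 to 884, against 1294 CPM, 1187 to 1407).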

How the data were processed

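Immune cells sorted from B6 kidney in aristolochic acid nephropathy were profiled as 1 single-cell sample in 2 hashed matrices (time label Week 2, title W1 and W2). The deposited values are raw UMI counts per gene and barcode, and per the file headers Cell Ranger 6.1.1 made them. Seurat 4.3.0, mm10 and an older Cell Ranger, 6.0, appear in the submitters' processing notes. Of 7015 barcodes, 414 under 500 UMIs, under 200 genes or over 10% mitochondrial UMIs were removed. A second sample, spatial, was not analysed here. The members, gene lists and comparisons were chosen with earlier results of these data known.

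Counts were summed per class and hashed sample and scaled to CPM over gene UMIs, without the hashtags (Python 3.11.15, numpy 2.4.6, scipy 1.17.1, pandas 2.3.3). Genes at 50 CPM in 1 class in each hashed sample were measured, and calls needed a 2-fold ratio of CPM plus 10 the same way in both. The hashed samples are not replicates, so no test was run. Intervals are exact Poisson for levels, Clopper-Pearson for shares and conditional binomial for ratios, at 95%, and cover counting error only. Called genes were ranked by mean log2 ratio, and the text names 12 from each end, at most 4 per list, without rule, mitochondrial, ribosomal, immunoglobulin, T cell receptor and sex-linked genes or unnamed models. Some genes that these rules name are not reported here. The text also gives genes of the 16 lists and the 15 genes most variable among members. Scrublet (scanpy 1.11.5) called 40 doublets (0.606% of kept cells), which were kept, and none was in the classes compared. TMM factors came from edgeR 4.0.16 in R 4.3.3, as an alternative scaling only. Alternatives covered the pseudocount, the level and fold limits, scaling, depth, the selection rule and single cells. Gene positions are those of GENCODE M21 on GRCm38.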

Additional observations from a re-analysis of the deposited data

How the results depend on the processing

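No named gene's mean log2 ratio changed sign under the alternatives run, except that of Ly6d against Cd209a cells, which was -0.0277 with members of 3 or more marker genes and without members carrying markers of another cell type. Higher and lower counts against patrolling monocytes were 22 and 48 with a pseudocount of 50 CPM, 39 and 68 with genes from 100 CPM, 166 and 258 at 1.5-fold, and 159 and 194 in cells thinned to 1000 UMIs. Of the 65 higher and 105 lower main calls, 33 and 67 were also called in thinned cells, so most calls in thinned cells were other genes. With members of 3 or more marker genes, 43 and 83 of the main calls were kept. Without members carrying markers of another cell type, 48 and 96 were kept. With genes from 20 CPM 121 were higher, and against patrolling cells without other limits 40 were higher. Calling on both hashed samples summed gave 130 and 179, an alternative chosen after seeing the data, as were leaving out each gene's highest cell and leaving out members with 1 patrolling gene. Against Cd209a cells the counts were 70 and 67 with a pseudocount of 50 CPM and 288 and 190 at 1.5-fold. There, 74 were higher from 100 CPM and 202 with hashed samples summed. The causes were not tested. Members were 0.482% and 0.717% of the cells kept when 3 or more marker genes were asked for, 1.03% and 1.18% with C1qa at 0, and 1.20% and 0.774% with the rule applied to thinned cells. Of the named genes' recomputed values against patrolling monocytes, 117 fell outside the range spanned by the hashed samples and 219 inside it. Against Cd209a cells, 95 and the 2 of Ly6d above fell outside and 215 inside. No paired analysis was possible because the labels give no replicates, and for the same reason none could be left out. With 57 and 69 members, genes under 50 CPM were not measured, and differences in small subsets rest on a few cells.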
